A study of Danio rerio with 6 samples.

Results

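Red blood cell formation and heme synthesis were followed through 9 genes in zebrafish (Danio rerio), with each whole embryo sampled alone at 30 hours post fertilisation (hpf). The 9 genes were chosen by name: the transcription factor genes gata1a and tal1, the membrane genes slc4a1a and epb41b, and the heme synthesis genes alas2, alad, urod, cpox and fech. The choice was made with earlier results of these data known. Each symbol matched 1 row of a count table of 32057 genes, and all 9 were among the 19889 genes that passed the filter on low counts. The embryos fell into a group of 3 labelled 3etv, which the series title calls Pea3 triple mutants, and a group of 3 labelled WT, all at the same stage. Pea3 proteins are ETS transcription factors that act downstream of fibroblast growth factor signalling. The labels do not say which genes carry the mutations, what kind of alleles they are, or whether the groups shared parents or a clutch, so a family difference that followed genotype cannot be told apart from genotype. Messenger RNA was selected by its poly-A tail and sequenced as 1 library per embryo.

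In zebrafish the first red cells arise from the intermediate cell mass and enter circulation shortly before the stage sampled here. Tal1 acts early in blood and vessel progenitors, and Gata1 then drives the red cell programme. Heme is built from glycine and succinyl-CoA by enzymes that work in sequence, beginning in the mitochondrion with the Alas enzymes, passing through the cytosol, and ending in the mitochondrion with the insertion of iron by ferrochelatase. Several of these genes are known from zebrafish anemia mutants: vlad tepes in gata1a, sauternes in alas2, yquem in urod, dracula in fech, retsina in slc4a1a and merlot in epb41b.

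Library totals in genes ran from 17570505 to 19600706 counts in 3etv and from 21516892 to 25512862 in WT. Levels are in CPM, counts divided by library totals that were adjusted by TMM factors, and a floor of 3 counts corresponded to 0.117 to 0.177 CPM. Transcripts of 3 Pea3 genes were lower in 3etv, with etv4 at a log2 fold change of -0.48, etv5a at -1.01 and etv5b at -1.34 (edgeR quasi-likelihood test, Benjamini-Hochberg adjusted p = 0.00923, 1.82e-05 and 1.27e-06), while etv1 was not called. All 7 markers of neurons, muscle, epidermis, heart, hatching gland, tailbud and notochord that were listed for a whole embryo were detected in both groups, and the tailbud gene cdx4 was lower in 3etv. Over all tested genes, 5178 (26.0%) were called at an adjusted p under 0.05, 2502 of them (12.6%) higher and 2676 (13.5%) lower in 3etv, so that 48.3% of calls were higher. Scaled by library totals alone, 34.2% of calls were higher. For 42.9% of tested genes the CPM ranges of the 3etv and WT embryos did not overlap.

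Of the 9 genes, slc4a1a was called higher in 3etv and fech was called lower, and the other 7 were not called. The share called was 22.2%, against 26.0% of all tested genes. The groups did not overlap for 6 of the 9 genes, against 42.9% of all tested genes. The log2 fold change was positive for 7 of the 9, against 49.3% of all tested genes. Its median was 0.22, against -0.0068 over all tested genes. Relative to the summed embryonic globins, 8 of the 9 had a lower mean in 3etv. The globin sum was itself higher in 3etv, so any gene of equal CPM in both groups is lower on that scale. In whole embryos a change in the number of red cells and a change in RNA per red cell cannot be told apart. Neither can be told apart from a change in the RNA of other cells of the embryo.

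**Figure D1:**
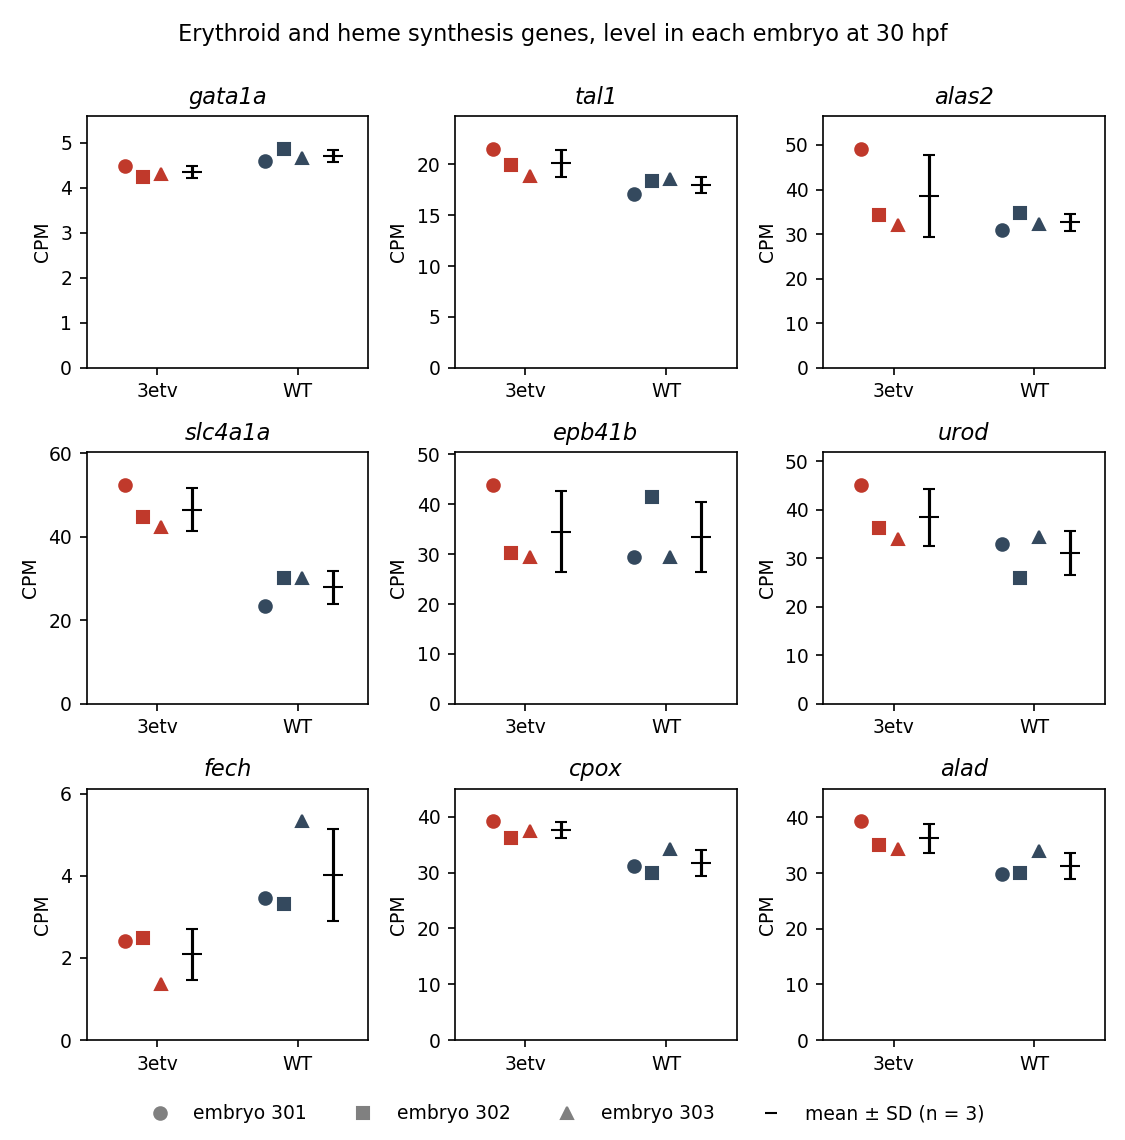
Level of each of the 9 genes in CPM (vertical axes, from 0) in each 3etv and WT embryo (symbols), with the mean and SD of 3 embryos beside them. For slc4a1a every 3etv point lies above every WT point, and for fech every 3etv point lies below. The groups are also apart, by less, for tal1, alad and cpox, with 3etv above, and for gata1a, with 3etv below. The 3etv embryo MUT301 is the highest 3etv embryo in 8 of the 9 panels.

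The transcription factor genes were not called. For gata1a (ENSDARG00000013477), which encodes the zinc finger factor that specifies red cells, levels were 4.49, 4.24 and 4.31 CPM in 3etv embryos MUT301, MUT302 and MUT303, against 4.60, 4.86 and 4.67 CPM in WT embryos WLD301, WLD302 and WLD303, the order kept throughout. Every 3etv embryo was below every WT embryo, but the gap was small: the means were 4.35 ± 0.129 CPM in 3etv and 4.71 ± 0.134 CPM in WT (SD, n = 3 each), from 72 to 89 counts in 3etv and 100 to 125 in WT. The log2 fold change was -0.12 with a 95% interval from -0.48 to 0.25 (edgeR adjusted p = 0.652).

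The gene tal1 (ENSDARG00000019930) encodes a basic helix-loop-helix factor needed for all blood lineages in zebrafish. Its levels were 21.5, 20.0 and 18.8 CPM in 3etv, against 17.1, 18.4 and 18.5 CPM in WT. All 3etv embryos were above all WT embryos, here in the opposite direction to gata1a, and the lowest 3etv embryo lay close to the highest WT embryo. The log2 fold change was 0.16 with a 95% interval from -0.07 to 0.39 (edgeR adjusted p = 0.29).

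The membrane genes behaved unlike each other. The gene slc4a1a (ENSDARG00000012881) encodes band 3, the anion exchanger that carries chloride and bicarbonate across the red cell membrane and anchors the membrane skeleton. Its levels were 52.3, 44.7 and 42.4 CPM in 3etv embryos, against 23.4, 30.2 and 30.1 CPM in WT embryos, from 1036, 758 and 777 counts in 3etv and 508, 776 and 695 counts in WT. Every 3etv embryo exceeded the highest WT embryo. The means were 46.5 ± 5.19 CPM in 3etv and 27.9 ± 3.89 CPM in WT (SD, n = 3 each), a fold change of 1.67, or 0.74 ± 0.119 (SE) on the log2 scale, with a 95% interval from 0.48 to 0.99 (edgeR adjusted p = 0.000986). The difference was more than the SD of either group.

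The gene epb41b (ENSDARG00000029019) encodes protein 4.1R, which ties spectrin and actin to the membrane. Its levels were 43.8, 30.2 and 29.4 CPM in 3etv and 29.4, 41.5 and 29.4 CPM in WT. In each group 1 embryo stood well above the other two, MUT301 in 3etv and WLD302 in WT, and the groups overlapped. The log2 fold change was 0.04 with a 95% interval from -0.32 to 0.40 (edgeR adjusted p = 0.874). Its sign turned in 4 of 14 alternative settings, none of which called it, among them library totals without TMM (-0.02) and the fit without 3etv embryo MUT301 (-0.16).

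Among the heme genes, the gene of the last step was called lower, and the 4 genes of earlier steps were not called. The gene alas2 (ENSDARG00000038643) encodes the erythroid 5-aminolevulinate synthase, which makes the first and rate-limiting product of the pathway in red cells. Its levels were 49.1, 34.3 and 32.1 CPM in 3etv, against 30.8, 34.6 and 32.3 CPM in WT. 3etv embryo MUT301 was high, and the other two 3etv embryos lay within the WT range. The log2 fold change was 0.24 with a 95% interval from -0.06 to 0.54 (edgeR adjusted p = 0.223), and it was 0.04 without 3etv embryo MUT301.

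The gene alad (ENSDARG00000100372) encodes the dehydratase that joins aminolevulinate into porphobilinogen, and its levels were 39.3, 35.1 and 34.4 CPM in 3etv and 29.8, 29.9 and 34.0 CPM in WT. The gene urod (ENSDARG00000006818) encodes the decarboxylase that makes coproporphyrinogen, and its levels were 45.1, 36.3 and 34.0 CPM in 3etv and 33.0, 26.0 and 34.5 CPM in WT. The gene cpox (ENSDARG00000062025) encodes the oxidase that follows, and its levels were 39.2, 36.3 and 37.5 CPM in 3etv and 31.2, 29.9 and 34.3 CPM in WT. For alad and cpox the groups did not overlap, with 3etv above WT, while for urod they did. The log2 fold changes of these genes were 0.22 for alad, 0.31 for urod and 0.25 for cpox. Their 95% intervals, not adjusted for the number of genes tested, ran from 0.0026 to 0.43, from 0.03 to 0.59 and from 0.04 to 0.45. None passed the threshold over all genes (edgeR adjusted p = 0.123, 0.0996 and 0.069).

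The gene fech (ENSDARG00000003462) encodes ferrochelatase, which inserts iron into protoporphyrin to complete heme. Its counts were low, at 48, 42 and 25 in 3etv and 75, 85 and 123 in WT. These corresponded to 2.42, 2.48 and 1.36 CPM in 3etv embryos, against 3.45, 3.31 and 5.32 CPM in WT embryos. Every 3etv embryo was below every WT embryo, with 3etv embryo MUT303 the lowest and WT embryo WLD303 the highest. The means were 2.09 ± 0.627 CPM in 3etv and 4.03 ± 1.12 CPM in WT (SD, n = 3 each), a fold change of 0.52, or -0.94 ± 0.276 (SE) on the log2 scale, with a 95% interval from -1.54 to -0.35 (edgeR adjusted p = 0.0246). The call was lost without either of those extreme embryos: the log2 fold change was -0.71 without 3etv embryo MUT303 (edgeR adjusted p = 0.0903) and -0.69 without WT embryo WLD303 (edgeR adjusted p = 0.119).

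**Figure D2:**
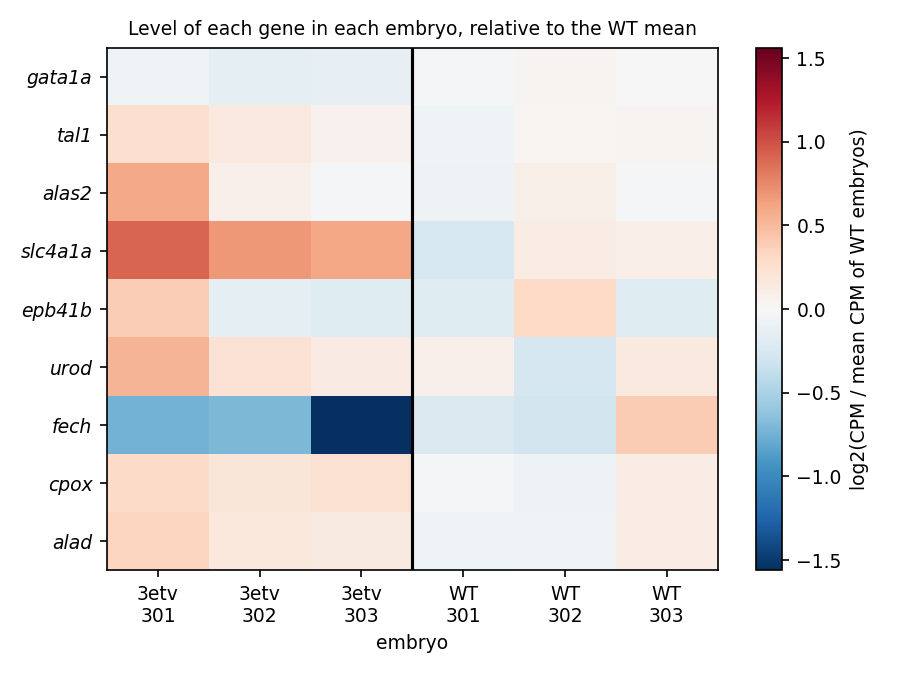
Level of the 9 genes (rows) in each embryo (columns, 3etv left of WT), coloured by the log2 ratio of the CPM to the mean CPM of the WT embryos. The slc4a1a row is 0.61 to 0.91 in 3etv and the fech row is -1.56 to -0.70 in 3etv, while the gata1a row stays between -0.15 and 0.04 in all embryos.

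The 3etv embryos differed from each other in the same direction across most of these genes. 3etv embryo MUT301 had the highest 3etv level for 8 of the 9 genes, all but fech, and 3etv embryo MUT303 had the lowest for 7. In WT, the order was less even: WLD301 was lowest for 6 genes and WLD302 for 3, while WLD302 was highest for 4 genes and WLD303 for 5. How often such orders occur over all tested genes was not counted. The hatching gland gene he1.1 was also highest in MUT301 within 3etv, at 130, 64.2 and 91.3 CPM. The muscle gene mylpfa was lowest there, at 3081, 3948 and 3807 CPM. Within 3etv the highest level exceeded the lowest by a factor of 1.06 for gata1a, 1.08 for cpox, 1.49 for epb41b, 1.53 for alas2 and 1.81 for fech. The summed level of the 9 genes was 297, 244 and 234 CPM in 3etv embryos, against 203, 219 and 223 CPM in WT embryos, without overlap. That separation rested on slc4a1a: the other 8 genes summed to 245, 199 and 192 CPM in 3etv and 179, 188 and 193 CPM in WT, so that 3etv embryo MUT303 fell below WT embryo WLD303. The mean of centred log2 CPM, which weights the 9 genes equally, also overlapped, at 0.24, 0.02 and -0.11 in 3etv and -0.13, -0.05 and 0.04 in WT. The median log2 fold change of the 9 genes was 0.12 without 3etv embryo MUT301, while slc4a1a remained at 0.65 (edgeR adjusted p = 0.00458).

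The remaining heme enzymes were set beside these genes. With the paralogs alas1, hmbsa and hmbsb and the single genes uros and ppox, 10 enzyme genes covered the pathway, and 8 had positive log2 fold changes, from 0.06 for alas1 to 0.53 for uros. The gene uros, for uroporphyrinogen synthase, was at 22.1, 22.0 and 21.0 CPM in 3etv, against 13.9, 15.2 and 15.9 CPM in WT, and it was called higher (edgeR adjusted p = 0.00377). The gene ppox, for protoporphyrinogen oxidase, acts directly before ferrochelatase. It was at 4.34, 4.01 and 3.55 CPM in 3etv, against 6.35, 6.07 and 6.84 CPM in WT. Its log2 fold change was -0.69 ± 0.169 (SE, edgeR adjusted p = 0.0104). Both negative values among the 10 thus belonged to the enzymes of the last 2 steps, and both were called, whereas 1 of the 8 genes of earlier steps was called. In all, 3 of the 10 were called, against 26.0% of all tested genes. The genes ppox and fech also had the lowest counts of the 10, at 65 to 158 and 25 to 123 per embryo. The fech call was lost in 2 of 14 settings. That the last steps differ from the earlier ones was seen in these data and was not tested.

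**Figure D3:**
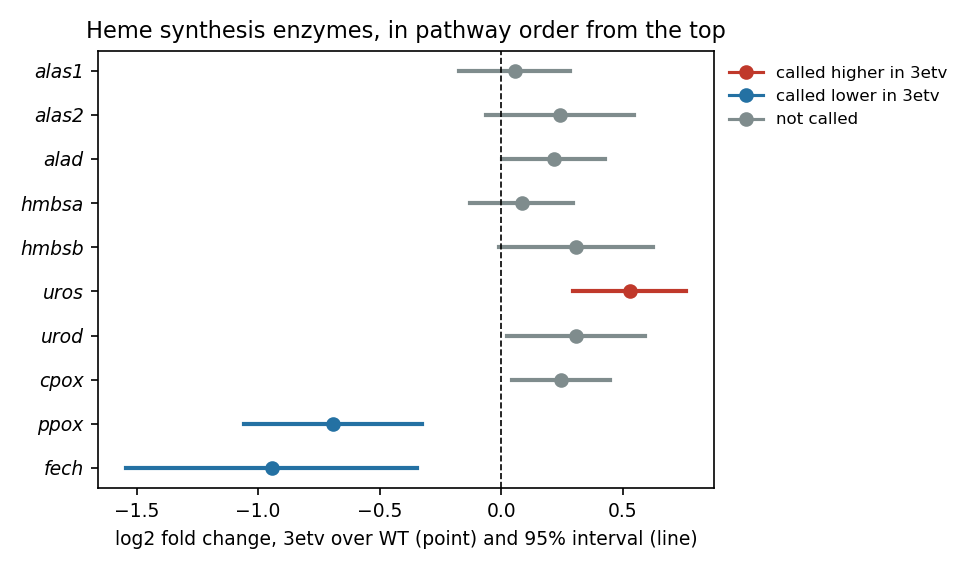
Log2 fold change of 3etv over WT (points) with 95% intervals (lines) for 10 heme synthesis enzyme genes, in pathway order from top to bottom. The 8 genes from alas1 to cpox lie between 0.06 and 0.53 with uros called higher, and ppox and fech, at -0.69 and -0.94, are called lower.

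Related genes outside the 9 were read from 5 lists, which included uros and ppox. Of 55 symbols, 52 were in the table, and of 52 tested entries 8 were higher (15.4%) and 5 lower (9.62%), against 12.6% and 13.5% of all tested genes. Their median log2 fold change was 0.05. Both shares lay near those of the whole table.

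Among 10 tested genes of mitochondrial iron and heme transport, 2 were called, against 26.0% of all tested genes, and both were higher. The log2 fold change was positive for 4 of the 10, against 49.3% of all tested genes, with a median of -0.06. The carrier gene slc25a39 was at 32.2 ± 0.378 CPM in 3etv and 26.2 ± 2.34 CPM in WT (SD, n = 3 each, edgeR adjusted p = 0.0388). The gene tmem14ca, whose mammalian relative moves protoporphyrinogen into the mitochondrial matrix, was at 19.0 ± 1.57 CPM in 3etv and 14.4 ± 0.515 CPM in WT (SD, n = 3 each, edgeR adjusted p = 0.0212). Both calls were lost in several fits, for slc25a39 in 8 and for tmem14ca in 5 of 14 settings. The iron importer gene slc25a37, known as mitoferrin and mutated in frascati, had 41, 22 and 28 counts in 3etv and 33, 66 and 51 counts in WT. Its log2 fold change was -0.36, and it was not called (edgeR adjusted p = 0.387). The largest change in this list was that of slc25a38a, at -0.86 and not called (edgeR adjusted p = 0.0686). It had 27, 14 and 18 counts in 3etv and 55, 49 and 32 counts in WT, without overlap in CPM.

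Of 13 other blood transcription factor genes, 2 were higher and 1 lower, against 12.6% and 13.5% of all tested genes. The repressor gene gfi1aa, which acts in zebrafish primitive red cells, had 54, 23 and 35 counts in 3etv, against 8, 12 and 9 counts in WT. No 3etv embryo overlapped WT, at a log2 fold change of 2.28 ± 0.368 (SE, edgeR adjusted p = 0.000972). The gene passed the filter on low counts only through its 3etv embryos, so its place among the tested genes depended on its high level there. With a filter on a mean of at least 50 counts it was not tested. Whether these gfi1aa counts came from red cells is not shown by RNA of whole embryos. The gene myb, a factor of blood stem cells that is also transcribed in dividing neural cells, was at 36.3 ± 3.18 CPM in 3etv and 24.1 ± 2.28 CPM in WT (SD, n = 3 each, edgeR adjusted p = 0.00192). The corepressor gene cbfa2t3, whose product binds Tal1 complexes in mammals, was at 10.6 ± 1.52 CPM in 3etv and 15.9 ± 1.39 CPM in WT (SD, n = 3 each, edgeR adjusted p = 0.00824). Neither klf1, a red cell factor with a log2 fold change of 0.25, nor the Tal1 partner lmo2, at 0.21, was called (edgeR adjusted p = 0.406 and 0.409). On the negative side, zfpm1 at -0.33, nfe2 at -0.35 and klf3 at -0.32 were not called either (edgeR adjusted p = 0.177, 0.342 and 0.235). The log2 fold change was positive for 7 of the 13, against 49.3% of all tested genes.

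Of 12 tested entries for other red cell membrane and cytosol genes, 3 were higher and 2 lower, against 12.6% and 13.5% of all tested genes. The spectrin gene sptb, mutated in the zebrafish anemia line riesling, was at 117, 108 and 88.2 CPM in 3etv, against 138, 178 and 173 CPM in WT. The groups were apart, at a log2 fold change of -0.64 ± 0.122 (SE, edgeR adjusted p = 0.0027), opposite in sign to slc4a1a. RNA of whole embryos does not show whether the reads of sptb and of the genes below came from red cells. The ankyrin gene ank1b, whose product links spectrin to band 3, was also lower, at -0.49 (edgeR adjusted p = 0.035), and its call was lost in 4 of 14 settings. The carbonic anhydrase gene cahz, a red cell enzyme that supplies bicarbonate to band 3, was at 36.1, 28.4 and 31.5 CPM in 3etv, against 22.1, 25.3 and 26.7 CPM in WT (edgeR adjusted p = 0.0296, lost in 5 of 14 settings). The other higher genes were the protein 4.1 gene epb41a, at 0.47 with overlapping groups, and the water channel gene aqp1a.1, at 0.39 (edgeR adjusted p = 0.0249 and 0.0148), whose calls were lost in 3 and 2 of 14 settings.

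Of 12 tested genes of iron uptake, iron storage and heme breakdown, 1 was called, against 26.0% of all tested genes, and it was lower. The heme oxygenase gene hmox1a had 110, 50 and 66 counts in 3etv and 212, 192 and 113 counts in WT, with 3etv embryo MUT301 at 5.55 CPM above WT embryo WLD303 at 4.89 CPM. Its log2 fold change was -0.86 ± 0.27 (SE, edgeR adjusted p = 0.034), and the call was lost in 4 of 14 settings. The transferrin receptor gene tfr1a, mutated in chianti, ranged widely, at 8.63, 4.60 and 2.67 CPM in 3etv and 5.89, 8.71 and 9.04 CPM in WT, and was not called (edgeR adjusted p = 0.205).

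Markers of red cells and their neighbours were summed for each embryo. The embryonic globins summed to 1336, 1058 and 1198 CPM in 3etv, against 999, 832 and 977 CPM in WT, without overlap. That separation rested on hbbe1.3, at 387, 292 and 274 CPM in 3etv, against 173, 170 and 161 CPM in WT. Without hbbe1.3, the sum of 3etv embryo MUT302 fell below those of WT embryos WLD301 and WLD303. Of 10 tested globin entries 3 were higher and 1 lower in 3etv. Over all tested genes, 12.6% were higher and 13.5% lower. Reads that aligned to several places were left out of the gene counts, so reads shared by near-identical globin copies may be missing. Such reads, from all genes, made up at most 5.322% of all reads in each 3etv library and at least 6.103% in each WT library. The part of this difference in the globin sums was not tested. Endothelial markers summed to between 108 and 113 CPM in 3etv and between 109 and 142 CPM in WT. The overlap came from WT embryo WLD301, at 109 CPM. Of 7 tested endothelial genes 1, tie1, was called, lower, against 26.0% of all tested genes called. The tie1 call was lost in 4 of 14 settings. The log2 fold change was positive for 1 of the 7, against 49.3% of all tested genes, with a median of -0.29. For 4 of the 7 the groups did not overlap, against 42.9% of all tested genes. Macrophage and neutrophil markers summed to between 26.2 and 27.6 CPM in 3etv and between 26.9 and 32.1 CPM in WT. Of their 8 tested genes 0 were called by edgeR, against 26.0% of all tested genes. Likewise 0 were called by the DESeq2 Wald test and 0 by limma-voom. Of 5 thrombocyte markers, 3 were tested and 1, f13a1b, was lower. The f13a1b call was lost in 6 of 14 settings, among them the DESeq2 Wald test, which called 0 of these markers. The defining thrombocyte genes itga2b and mpl stayed at 10 counts or fewer in every embryo. The part of globin content and of these cell types in the changes of the 9 genes was not tested.

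**Figure D4:**
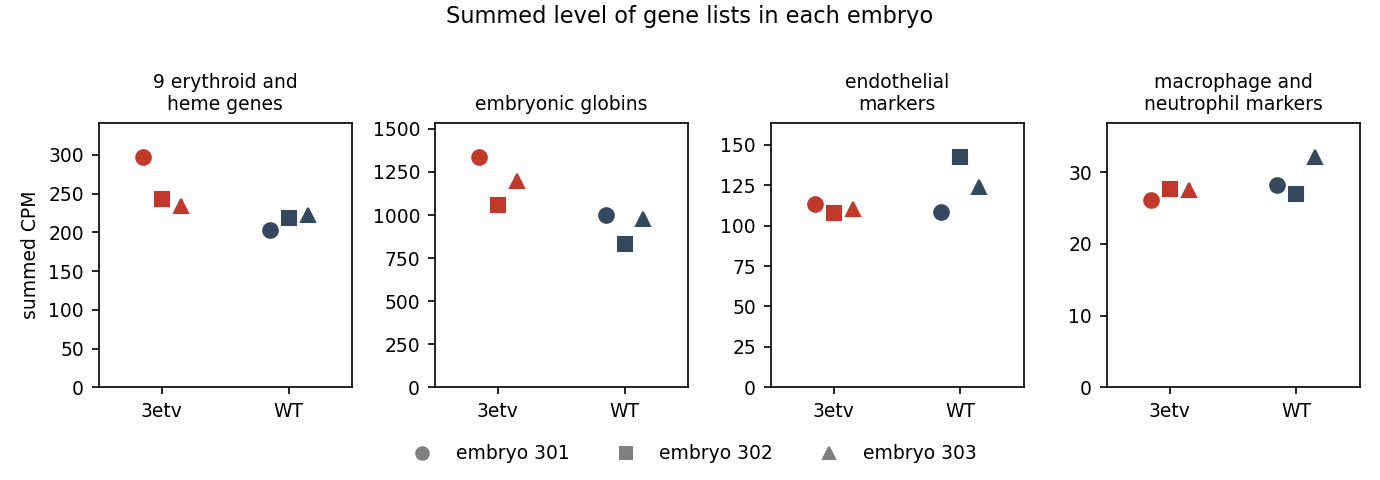
Summed CPM of 4 gene lists (vertical axes, from 0, on separate scales) in each 3etv and WT embryo (symbols). The sums of the 9 genes and of the embryonic globins lie higher in every 3etv embryo than in any WT embryo. For the 9 genes this holds only with slc4a1a included, and for the globins only with hbbe1.3 included. The endothelial and the macrophage and neutrophil sums overlap.

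To set the genes beside the globins, each level was also expressed per 1000 CPM of summed globins, a scale chosen after the values were seen. The log2 fold changes of the globin entries ran from -0.39 to 0.94, and their sum was not tested as a measure of red cell content. On the globin scale slc4a1a was at 39.1, 42.2 and 35.4 in 3etv and 23.4, 36.3 and 30.8 in WT. There 3etv embryo MUT303 fell below WT embryo WLD302. The level of fech on this scale was 1.81, 2.34 and 1.14 in 3etv, against 3.45, 3.97 and 5.45 in WT, still without overlap. For gata1a the scaled values were 3.36, 4.01 and 3.60 in 3etv, against 4.61, 5.84 and 4.78 in WT. On this scale 8 of the 9 genes had a lower mean in 3etv, and the direction of 6 genes turned relative to CPM. The summed globins were themselves higher in 3etv, at a mean of 1198 CPM against 936 CPM in WT. Any gene with equal CPM in both groups is therefore lower in 3etv on this scale, so these counts are not particular to the 9 genes. The scaled means of the 6 genes that turned were 16.9 in 3etv and 19.4 in WT for tal1, 32.0 in 3etv and 35.2 in WT for alas2, and 28.6 in 3etv and 36.5 in WT for epb41b. They were 32.1 in 3etv and 33.2 in WT for urod, 31.6 in 3etv and 34.1 in WT for cpox, and 30.4 in 3etv and 33.5 in WT for alad, and for all 6 the groups overlapped.

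Likeness to the 9 genes was measured as Pearson's r between log2 CPM and the mean of their centred log2 CPM over the 6 embryos. Among the other genes that averaged 50 counts or more, the 5 most alike were si:ch211-69b22.5 (r = 0.991), alg14 (r = 0.989), cndp2 (r = 0.983), pik3cg (r = 0.98) and plpp6 (r = 0.977). Their log2 fold changes between the groups ran from 0.09 to 0.24 (edgeR adjusted p from 0.464 to 0.708). These r values were the highest of all genes compared, so high values follow from the choice itself. With 6 embryos that share libraries with the 9 genes, they describe the embryos only.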

How the data were processed

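Poly-A RNA libraries of 6 single embryos, 3 in each group, were analysed. The authors deposited unnormalised counts for each Ensembl gene. STAR, HTSeq and build GRCz11 are named in the submitters' processing notes without versions; the annotation release and strand setting are not given in the sources used here. Counts of overlapping, antisense or near-identical genes are therefore uncertain, and no coordinates are given. Per the labels' protocols, libraries were strand-specific. The header lacks a tab between 2 mutant columns; all 6 columns matched a sample title by name. Of all reads in the table, 60.1 to 61.1% stood on 5 summary lines that name no gene and were left out.

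Counts were tested as deposited in R 4.3.3 with edgeR 4.0.16: filterByExpr, TMM factors, and the quasi-likelihood test of 3etv over WT, with Benjamini-Hochberg adjustment over 19889 genes and a threshold of 0.05. SE is the absolute log2 fold change over the root of F, and 95% intervals use the test's degrees of freedom. Embryos are separate samples. Chi-square per degree of freedom ran from 6.32 to 9.56 between 3etv libraries and from 20.1 to 49.0 between WT libraries. Floors cover counting error only. Alternatives were DESeq2 1.42.0 (size factors, Wald test), limma-voom (limma 3.58.1), library totals, other filters, a replicate block, thinning to the smallest total, and leaving out each embryo. The 9 genes, the lists and the naming rule (the 9 genes, called genes of the related lists, the 5 genes most alike and the Pea3 genes) were chosen with earlier results of these data known; other genes were named after their values were seen. Of the 9 identifiers, all 9 were in the gene name table, with the same symbol for 8.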

Additional observations from a re-analysis of the deposited data

Results flagged for a closer look

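Reads that fell in no gene, which the comparisons do not use, made up 55.3 ± 0.0729% of all reads in the table in 3etv and 54.1 ± 0.382% in WT (SD, n = 3 each), with every 3etv library above every WT library. The part of this difference in the results above was not tested.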

How the results depend on the processing

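The 9 genes gave 126 values over 14 other settings, and 124 kept their side of the threshold; both exceptions were fech without 3etv embryo MUT303 and without WT embryo WLD303. The log2 fold change of slc4a1a ran from 0.62 to 0.81 and stayed called in all 14. Leaving out each embryo in turn gave 0 to 1 of the 9 genes called lower, and 4 to 7 related genes higher and 3 to 7 lower. Over the table these fits called 1643 to 2266 genes higher and 1787 to 2572 lower. With library totals only, 4 related genes were called higher in place of 8. The share of all calls that were higher also fell there, to 34.2% from 48.3%. Over the related genes, 31 of 719 values lost a call and 4 gained one. Same-numbered embryos showed no pairing: their deviations correlated at -0.07, 0.09 and -0.11. With the replicate block 4723 genes were called, 4559 of them among the 5178 (edgeR adjusted p = 0.00237 for slc4a1a and 0.0454 for fech). Depth limits fech, which had 25 to 123 counts per embryo.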
